A study of Mus musculus with 2 samples.

Results

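Inhibitory receptors and Tox factors were examined through 9 genes, picked by symbol among the 32285 genes of the count tables, in donor T cells from a mouse model of acute graft-versus-host disease (aGvHD). Tox and Tox2 encode nuclear proteins that bind DNA through an HMG box. Pdcd1 (PD-1), Havcr2 (TIM-3), Lag3, Tigit, Ctla4 and Cd160 encode surface receptors, and Entpd1 encodes CD39, a surface enzyme that breaks down extracellular ATP. The last 7 genes are called receptors here for brevity. In build mm10 the genes lie at chr4:6686353-6991557 (Tox), chr2:163203125-163324170 (Tox2), chr1:94038305-94052553 (Pdcd1), chr11:46454935-46481255 (Havcr2), chr6:124904361-124911705 (Lag3), chr16:43648867-43664146 (Tigit), chr1:60887000-60915832 (Ctla4), chr3:96798763-96829351 (Cd160) and chr19:40612366-40741602 (Entpd1). Inhibitory receptors appear on T cells after their antigen receptor is engaged and, on meeting their ligands on other cells, restrain signals from that receptor or from CD28. T cells that meet antigen over a long time, as in chronic infection and in tumors, carry several of these receptors together, and in that setting TOX is known to be needed for the exhausted state and for the survival of such cells. In allogeneic hematopoietic cell transplantation (allo-HCT), donor T cells meet antigens of the recipient in many tissues.

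The transplants used lethally irradiated BALB/c recipients that received T cell-depleted bone marrow and wild-type splenic T cells from C57BL/6 donors. Both libraries hold spleen cells of recipients sorted as CD45+, H2kb+, H2kd- and TCRβ+ and captured on the 10x Genomics system, 1 library labelled Day 7 and 1 labelled Day 14. The library names carry PBS for both, without an explanation. The labels give a smaller dose of naive T cells per recipient than a main figure legend of the study. A supplemental figure legend gives the same number as the labels, for splenic T cells. Their protocol text mentions only the day +7 sort, also in the Day 14 library, so the day was taken from the titles. Cells of several spleens were pooled, no label marks the animal of a cell, and H2kb is carried by cells from the donor marrow as well as by the transferred T cells. With 1 library per day there is no spread between replicates and no test, and the day and the library cannot be told apart. The 95% intervals in brackets cover counting error only.

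After removal of barcodes with fewer than 500 or more than 7500 genes or with more than 15% mitochondrial counts, 7179 of 7355 barcodes remained on day +7 and 7794 of 8043 on day +14. The median was 9210 unique molecular identifiers (UMIs, 1 per captured RNA molecule) per cell on day +7 and 8144 on day +14. Levels are UMIs of a gene per 1000000 UMIs of the same cells (CPM). Gates were read at an equal depth of 4000 UMIs drawn from each cell, and 198 and 969 cells of lower depth entered no gate. The CD8 gate (a UMI of Cd8a or Cd8b1, none of Cd4 or Foxp3) held 5512 and 5519 cells, the conventional CD4 gate (Cd4 without Cd8 or Foxp3) 308 and 403, and the Foxp3+ gate (Foxp3 without Cd8) 31 and 28. The 6 T cell receptor and CD3 genes amounted to 5687 and 7521 CPM in all kept cells, so the markers of the labelled cell type were present. All kept cells also held the neutrophil list at 2410 and 2635 CPM, the macrophage list at 55.9 and 26.4 and the erythroid list at 205 and 105. Barcodes high in these lists were kept out of the CD8 gate by its definition. The T cell receptor and CD3 genes were at 6011 and 7637 CPM in that gate. In the CD8 gate the neutrophil list was at 53.2 and 43.6 CPM, the macrophage list at 19.5 and 15.8, the erythroid list at 34.5 and 17.5, the NK list at 7.42 and 0.555, the B cell list at 0.211 and 0.345 and the platelet list at 0.196 and 0.825, and their part in the results was not tested. The libraries shared 20 cell barcodes. Fewer cells of a type within a gate and less RNA per cell cannot be told apart in these summed levels.

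The bases before the start site are shown for 3 receptor genes, Pdcd1 and Cd160, which were higher on day +14, and Havcr2, which was not. RefSeq entries matched 7 of the 9 genes in build GRCm38.p6, all but Tox and Lag3. Each sequence runs 5′ to 3′ on the strand of the gene over the 250 bases upstream, and capitals mark a match, on either strand, to the NFAT core GGAAA or the AP-1 motif TGANTCA.
Pdcd1, chr1:94052554-94052803, minus strand: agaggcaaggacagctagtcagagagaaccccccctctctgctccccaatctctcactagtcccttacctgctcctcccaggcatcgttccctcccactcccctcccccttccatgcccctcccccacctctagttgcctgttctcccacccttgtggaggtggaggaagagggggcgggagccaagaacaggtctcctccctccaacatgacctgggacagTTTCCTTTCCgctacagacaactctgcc
Cd160, chr3:96829352-96829601, minus strand: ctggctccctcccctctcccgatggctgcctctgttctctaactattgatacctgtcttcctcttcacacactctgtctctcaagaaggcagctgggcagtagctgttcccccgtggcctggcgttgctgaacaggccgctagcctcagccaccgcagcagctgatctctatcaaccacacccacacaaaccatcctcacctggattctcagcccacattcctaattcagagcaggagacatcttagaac
Havcr2, chr11:46454681-46454930, plus strand: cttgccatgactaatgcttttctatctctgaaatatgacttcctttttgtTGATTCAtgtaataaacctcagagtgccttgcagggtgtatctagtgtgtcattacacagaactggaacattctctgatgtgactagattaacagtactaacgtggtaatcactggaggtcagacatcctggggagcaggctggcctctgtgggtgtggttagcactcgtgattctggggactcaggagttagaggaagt
Pdcd1 held a pair of adjacent NFAT cores, read on the opposite strand, from base -28 to base -19. Havcr2 held 1 AP-1 motif from base -200 to base -194, and Cd160 held neither. Of the promoters not printed, Tigit held 2 NFAT cores and Ctla4 held 1, and Tox2 and Entpd1 held neither motif. The start site read for Ctla4 lies 22025 bases from the gene start given above, inside the gene. For the other matched genes the distance was at most 38 bases. The entries list 5 promoters for Tox2 and 2 each for Cd160 and Entpd1, and only 1 of each was read. Over the window from 250 bases before to 50 after the start, the NFAT core occurs in 61.3% of the 32851 RefSeq promoters of the mouse and the AP-1 motif in 7.81%. The motifs AAAGGTCA of NR4A factors (1.51% of promoters), CTTTGAA of TCF/LEF factors (5.14%) and GGTGTGA of T-box factors (3.98%) were in none of the 7 promoters. These are matches of letters, and no binding was measured.

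The first comparison asked how the 9 genes differed between day +7 and day +14 in the CD8 gate. Tox was at 65.9 CPM [63.95, 67.9] on day +7 and at 215 CPM [211, 218] on day +14, a 3.26-fold higher level. Tox2, a relative of Tox, was at 2.26 CPM [1.91, 2.65] and 14.3 CPM [13.4, 15.3], from 150 and 956 UMIs. Its level was 6.35-fold higher on day +14, but its mean lay under the minimum of 10 CPM set for calls. On the log2 scale the day ratio was 1.71 [1.66, 1.75] for Tox and 2.67 [2.42, 2.92] for Tox2.

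Among the receptors, the day +14 level was higher for 3 that bind ligands of different kinds. Cd160, a receptor for HVEM (Tnfrsf14), was at 131 CPM [128, 133] on day +7 and at 263 CPM [259, 267] on day +14. Pdcd1, the receptor for PD-L1 and PD-L2, was at 180.5 CPM [177, 184] and 277 CPM [273, 281]. Lag3, a CD4 homolog that binds MHC class II, was at 87.6 CPM [85.4, 89.9] and 144 CPM [141, 147]. Their log2 ratios were 1.01 [0.97, 1.05] for Cd160, 0.62 [0.59, 0.65] for Pdcd1 and 0.71 [0.67, 0.76] for Lag3. The interval of Cd160 spans the 2-fold line. The ratios exceed those of 98.2% (Cd160), 95.2% (Lag3) and 92.7% (Pdcd1) of all genes tested in the gate, and that of Tox exceeds 99.5%.

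The other receptors differed little between the days in the CD8 gate. Havcr2, whose product marks terminally exhausted cells in other settings, was at 66.5 CPM [64.6, 68.5] on day +7 and 58.1 CPM [56.3, 59.9] on day +14, a log2 ratio of -0.20 [-0.26, -0.13]. Ctla4, which competes with CD28 for CD80 and CD86, was at 46.1 CPM [44.5, 47.7] and 44.1 CPM [42.5, 45.7], with an interval of the log2 ratio from -0.14 to 0.01. Entpd1 was at 17.7 CPM [16.7, 18.7] and 20.9 CPM [19.8, 22.0], and Tigit, a receptor for CD155, at 5.24 CPM [4.70, 5.82] and 6.22 CPM [5.64, 6.85].

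With 1 CPM added to each value, 7 of the 9 genes passed the minimum of 10 CPM in the CD8 gate (not Tox2 and Tigit), and 2 of the 7, Tox and Cd160, were at least 2-fold higher on day +14, with none 2-fold lower. Among all 6826 genes tested in the gate, 1.82% were 2-fold higher and 1.39% 2-fold lower. The median log2 ratio was 0.62 over the 7 genes and 0.19 over all genes tested. Scaling by the median ratio of genes shifted the day +14 levels in the gate by 0.22 on the log2 scale. With 1 CPM added, Cd160 was then at 0.79, no longer past 2-fold, and Entpd1 and Tigit were at 0.02 and 0.03. In all kept cells the same 2 genes were past 2-fold, at log2 ratios of 1.77 [1.73, 1.81] for Tox and 1.08 [1.04, 1.11] for Cd160, where the share of all genes was 1.85% higher and 1.26% lower. The 9 genes summed amounted to 602 CPM [597, 608] on day +7 and 1042 CPM [1035, 1050] on day +14 in the CD8 gate, a log2 ratio of 0.79 [0.77, 0.81].

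**Figure D1:**
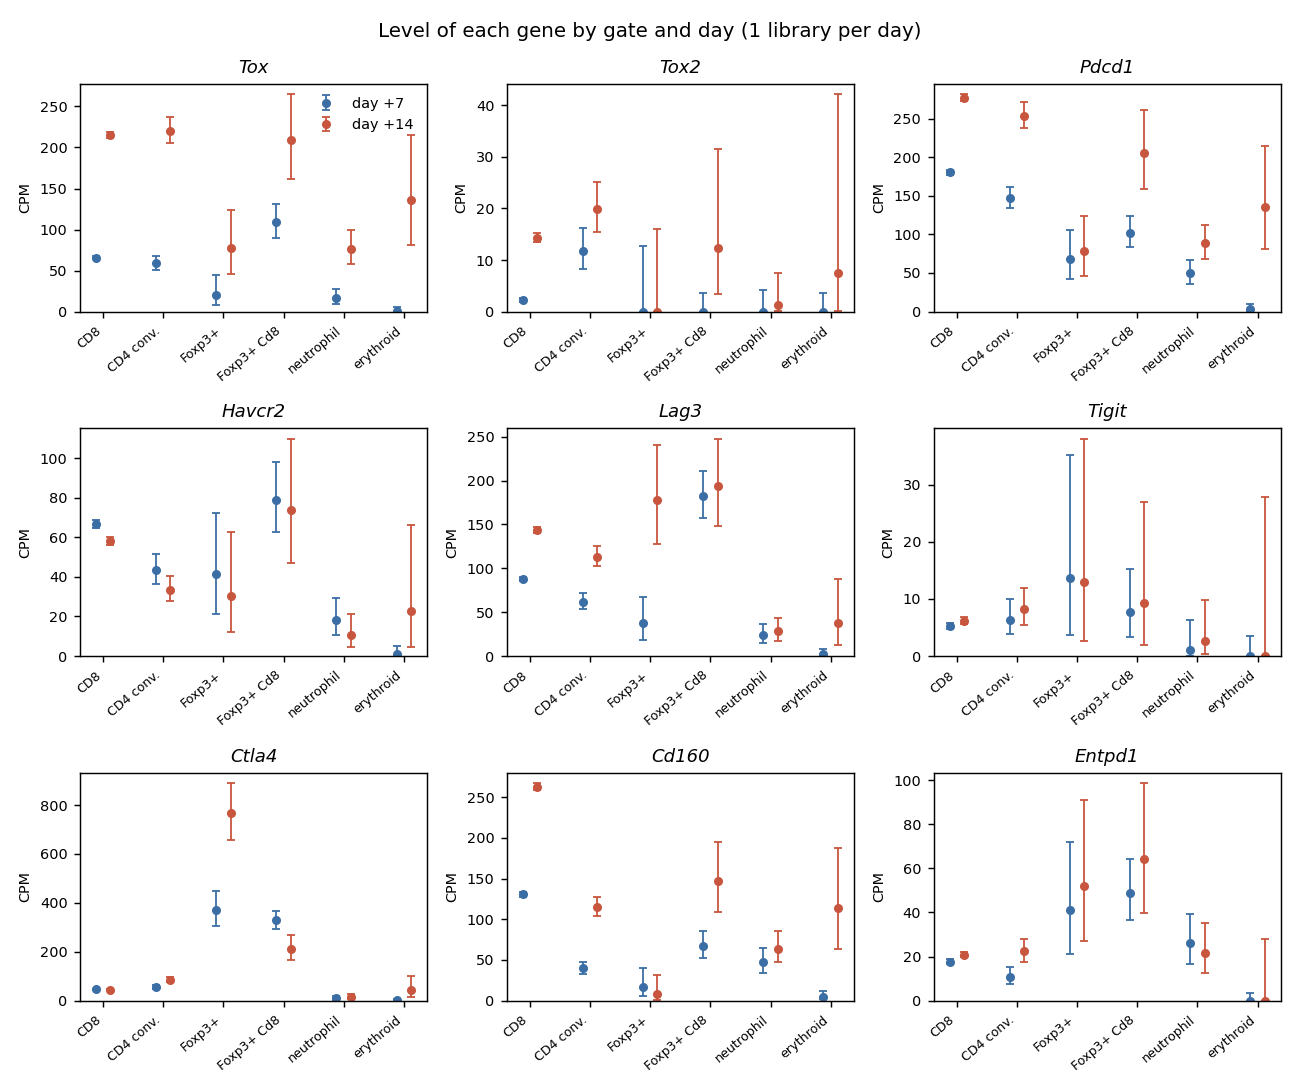
Level of each gene (CPM, linear axis from 0) by gate in the day +7 (blue) and day +14 (red) libraries, with exact Poisson 95% intervals of the counts. Tox stood at 65.9 and 215 CPM in the CD8 gate and at 58.9 and 220 CPM in the conventional CD4 gate, and Ctla4 was highest in both gates with Foxp3.

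The conventional CD4 gate was examined next. Tox was at 58.9 CPM [50.5, 68.3] on day +7 and at 220 CPM [205, 237] on day +14, close to its levels in the CD8 gate, and its log2 ratio was 1.90 [1.66, 2.15]. Cd160 was at 39.8 CPM [33.0, 47.7] and 115 CPM [104, 127], below the CD8 gate on both days, with a log2 ratio of 1.53 [1.23, 1.84]. The CD8 gene Cd8b1 was at 28.5 and 28.1 CPM in the CD4 gate, against 707 and 553 CPM in the CD8 gate. Cd8a was at 5.36 and 25.5 CPM in the CD4 gate, from 16 and 86 UMIs, against 205 and 484 CPM in the CD8 gate, and both CD8 genes summed were at 33.8 and 53.6 CPM in the CD4 gate. Their part in the Cd160 level was not tested. Entpd1 was at 10.7 CPM [7.33, 15.1] and 22.5 CPM [17.7, 28.2], a log2 ratio of 1.07 [0.46, 1.71] from 32 and 76 UMIs.

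Pdcd1 was at 147 CPM [134, 161] on day +7 and 254 CPM [237, 272] on day +14 in the conventional CD4 gate. Lag3 was at 61.9 CPM [53.3, 71.5] and 113 CPM [102, 125], and Ctla4 at 54.9 CPM [46.8, 64.0] and 84.6 CPM [75.1, 95.05]. Ctla4 was thus higher on day +14 in the CD4 gate, with a log2 ratio of 0.62 [0.34, 0.91], whereas the interval of its ratio in the CD8 gate held 0. Tox2, which is also known from follicular helper T cells, was at 11.7 CPM [8.16, 16.3] on day +7 in the CD4 gate and at 2.26 CPM in the CD8 gate, and its CD4 level was 19.8 CPM [15.4, 25.2] on day +14. Havcr2 was at 43.5 CPM [36.4, 51.7] and 33.4 CPM [27.6, 40.2]. Of the 8 genes past 10 CPM, 3 (Tox, Cd160 and Entpd1) were at least 2-fold higher on day +14 and none 2-fold lower, where 3.38% of all 7021 genes tested were 2-fold higher and 1.27% lower. The median log2 ratio was 0.82 over the 8 genes and 0.16 over all genes. The call of Entpd1 was the least firm, with log2 ratios from 0.70 to 1.48 under the alternatives. With 1 CPM added its log2 ratio was 1.00, and with median-ratio scaling it was 0.94 and the call was lost.

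**Figure D2:**
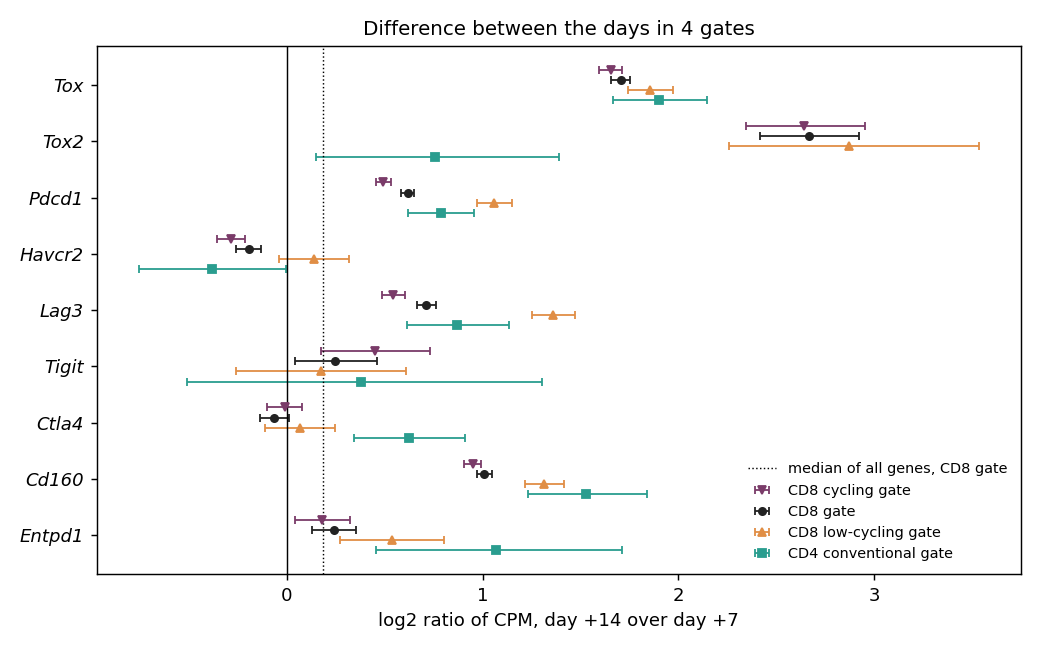
Log2 ratio of CPM, day +14 over day +7, for each gene in 4 gates, with exact conditional binomial 95% intervals of the counts and the median of all genes in the CD8 gate as a dotted line. Tox lay between 1.65 and 1.90 in all 4 gates, and Lag3 lay at 0.54 in cycling and at 1.36 in low-cycling CD8 cells.

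Regulatory T cells constitutively express Ctla4, and the Foxp3+ gate held few cells. Foxp3 defines the gate, so its identity was read from the regulatory markers Il2ra and Ikzf2. Il2ra was at 230 CPM on day +7 and 178 CPM on day +14, against 54.6 and 21.9 CPM in the conventional CD4 gate. Ikzf2 was at 584 and 888 CPM, against 38.2 and 64.8 CPM. Ctla4 was at 371 CPM [304, 448] on day +7 and at 767 CPM [658, 888] on day +14, from 108 and 177 UMIs. A Ctla4 UMI was found in 21 of 31 cells on day +7 and in 25 of 28 on day +14 at equal depth. Lag3 was at 37.8 CPM [18.9, 67.6] and 178 CPM [127, 241] in these cells, from 11 and 41 UMIs. Tox stood at 20.6 CPM [7.57, 44.9] and 78.0 CPM [46.2, 123], below the conventional CD4 gate on both days, and Cd160 had 5 and 2 UMIs. Tox2 had 0 UMIs on either day, which allows up to 10.3 CPM on day +7 and 13.0 CPM on day +14 (3 counts). Tigit had 4 and 3 UMIs. The intervals of the log2 ratio were -0.82 to 1.18 for Pdcd1, -2.03 to 1.02 for Havcr2 and -0.95 to 1.62 for Entpd1, and each held 0.

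Cells with UMIs of both Foxp3 and Cd8 numbered 84 on day +7 and 22 on day +14. Their Ctla4 level was 329 CPM [295, 365] on day +7 and 212 CPM [165, 268] on day +14, their Lag3 level 183 CPM [158, 211] and 193 CPM [149, 247], and their Tox level 109 CPM [89.5, 131] and 209 CPM [162, 265]. Foxp3 was at 236 and 190 CPM in them and Cd8b1 at 721 and 371 CPM. At day +14, 6 of the 22 were among the highest doublet scores of the library (27.3%), against 7.63% of the CD8 gate and 0 of 28 in the Foxp3+ gate. At day +7 the shares were 8.33% and 6.49%. The part of doublets in these levels was not tested.

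The next comparison asked whether the day ratios held in cells of like cycling state. CD8 gate cells were split by the UMIs of 16 cycling genes at equal depth into cycling cells (at least 5 UMIs, 3124 on day +7 and 3555 on day +14) and low-cycling cells (at most 1 UMI, 1349 and 1099), with 1039 and 865 cells between the limits. In low-cycling cells all 9 genes passed 10 CPM, Tox2 by its day +14 level of 19.5 CPM, and 5 of them (Tox, Tox2, Pdcd1, Lag3 and Cd160) were at least 2-fold higher on day +14. With median-ratio scaling Pdcd1 was at 0.90 in low-cycling cells and lost its call, and the other 4 kept theirs. Among all 6660 genes tested in low-cycling cells 3.95% were 2-fold higher and 1.47% lower. In cycling cells 1 of 7, Tox, passed this line, where 1.66% of all 6811 genes were 2-fold higher and 1.31% lower. Of the 9 genes, Lag3 had the widest gap in day ratio between the states. It was at 105 CPM on day +7 and 271 CPM on day +14 in low-cycling cells, a log2 ratio of 1.36 [1.25, 1.47], and at 80.85 and 118 CPM in cycling cells, a log2 ratio of 0.54 [0.49, 0.60]. For Pdcd1 the log2 ratio was 1.06 [0.97, 1.15] in low-cycling and 0.49 [0.45, 0.53] in cycling cells, and for Tox 1.86 [1.74, 1.97] and 1.65 [1.60, 1.71]. Havcr2 was at 58.4 and 64.4 CPM in low-cycling cells and at 68.3 and 56.0 CPM in cycling cells. Whether the day ratio differs between the states cannot be tested with 1 library per day.

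Within each library the genes were then compared between cycling and low-cycling CD8 cells. At day +14 every gene that passed 10 CPM was lower in cycling cells, from a log2 ratio of -0.20 for Havcr2 to -1.19 [-1.27, -1.12] for Lag3, and Lag3 was the only one past 2-fold. Among all 7054 genes tested, 52.8% had a higher level in cycling cells, 2.18% were 2-fold lower and 7.71% 2-fold higher. At day +7 none of 7 was past 2-fold, where 1.68% of genes were lower and 8.13% higher. Pdcd1 was at 179 and 181 CPM in low-cycling and cycling cells of that day, with a log2 ratio interval from -0.06 to 0.09, and Havcr2 was higher in cycling cells with a ratio of 0.22 [0.10, 0.36]. Tox was lower in cycling cells on both days, at ratios of -0.50 [-0.62, -0.39] and -0.70 [-0.77, -0.64]. Median depth over all UMIs was 12920.5 and 6707 UMIs in cycling and low-cycling cells on day +7 and 12301 and 5662 on day +14.

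Shares of cells with a UMI were read at 4000 UMIs per cell. In the CD8 gate a Tox UMI was found in 19.9% [18.9, 21.0] of cells on day +7 and 54.3% [53.0, 55.6] on day +14, and 3 or more Tox UMIs in 1.31% and 9.84%. The shares were 44.0% and 61.4% for Pdcd1, 35.9% and 58.6% for Cd160, 28.7% and 43.2% for Lag3 and 0.816% and 5.40% for Tox2. They were 20.1% and 19.0% for Havcr2, 18.03% and 16.9% for Ctla4, 7.55% and 8.95% for Entpd1 and 2.59% and 2.55% for Tigit. The share was thus higher on day +14 for 6 of the 9 genes, no more than over all genes tested, of which 72.8% had a higher share. With another random draw it was higher for 7. Without thinning, the Tox shares were 38.9% and 78.6%, the Pdcd1 shares 66.9% and 82.3%, the Cd160 shares 60.7% and 79.7% and the Lag3 shares 54.3% and 69.8%. Within low-cycling CD8 cells a Lag3 UMI was found in 31.9% [29.5, 34.5] on day +7 and in 62.0% [59.02, 64.8] on day +14, and within cycling cells in 25.99% and 35.7%. In the conventional CD4 gate the shares were 20.5% [16.1, 25.4] and 55.6% [50.6, 60.5] for Tox, and 12.01% [8.60, 16.2] and 28.3% [23.9, 33.0] for Cd160. Havcr2 was found in 15.9% [12.01, 20.5] and 9.93% [7.19, 13.3] of these CD4 cells.

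Free RNA can place UMIs in cells that do not express a gene, so the shares are set beside cells that should lack these genes. In the erythroid gate a Tox or Pdcd1 UMI was found in 0 of 35 cells on day +7, which allows up to 8.57%, and Cd160 in 1 of 35. At day +14 that gate held 13 cells, of which 2 had a Tox UMI and 6 a Pdcd1 UMI, and its T cell genes were at 3528 CPM, against 172 CPM on day +7. In the neutrophil gate, a Tox UMI was found in 1 of 42 cells on day +7 and 9 of 55 on day +14, and its T cell genes were at 1522 and 2547 CPM. Median depths were 32315 and 8582 UMIs in the erythroid gate and 14450 and 9565 in the neutrophil gate, against 9388 and 9413 in the CD8 gate. The Tox, Pdcd1, Lag3 and Cd160 shares of the CD8 gate lay above those of both gates on both days, although the interval of the 6 of 13 Pdcd1 cells reached 74.9%. Ctla4 was found in 0 of 35 and 2 of 13 erythroid and in 2 of 42 and 2 of 55 neutrophil gate cells, and Havcr2 in 0 of 35 and 1 of 13 and in 2 of 42 and 2 of 55. Tox2 was found in 0 of 35 and 0 of 13 and in 0 of 42 and 1 of 55. At this depth its shares of 0.816% and 5.40% cannot be told from background on either day. By level, Tox2 on day +14 was at 14.3 CPM [13.4, 15.3] in the CD8 gate, above the 1.36 CPM [0.03, 7.57] of the neutrophil gate. The erythroid gate was at 7.56 CPM [0.19, 42.1] on that day, an interval that holds the CD8 level. Entpd1 was found in 0 of 35 and 0 of 13 erythroid gate cells, which allows up to 8.57% and 23.1%. In the neutrophil gate Entpd1 was found in 7.14% [1.498, 19.5] and 10.9% [4.11, 22.2] of cells, ranges that overlap on both days. Its level was 26.2 and 21.7 CPM in the neutrophil gate, where Tox was at 17.1 and 76.1 CPM, and 0 UMIs on either day in the erythroid gate, which allows up to 2.88 and 22.7 CPM (3 counts). The macrophage gate, with T cell genes at 3979 and 6281 CPM, served as no background. For Tigit, with 2.59% and 2.55%, both gates held 0 cells with a UMI, which allows up to 7.14% of 42 and 5.45% of 55 neutrophil gate cells, and its share cannot be told from background.

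The number of receptors detected in the same cell was higher on day +14. Such a number rises with the share of each receptor alone. The shares of Pdcd1 (44.0% and 61.4%), Cd160 (35.9% and 58.6%) and Lag3 (28.7% and 43.2%) were higher on day +14, as for 72.8% of all genes tested. The number expected from the single shares, and a like number for other genes, were not computed. Of CD8 gate cells, 20.1% [19.0, 21.2] had UMIs of at least 3 of the 7 receptors on day +7 and 35.9% [34.6, 37.1] on day +14, and cells without any receptor UMI made up 18.5% and 8.03%. At least 5 receptors were found in 43 of 5512 cells and in 112 of 5519. The mean was 1.57 receptors per cell (SD over cells 1.13) on day +7 and 2.11 (SD 1.16) on day +14. In low-cycling cells the share with at least 3 was 22.2% [19.97, 24.5] and 51.0% [48.05, 54.04], and in cycling cells 18.5% [17.1, 19.9] and 28.7% [27.2, 30.2]. In the conventional CD4 gate it was 9.09% [6.13, 12.9] and 22.1% [18.1, 26.5]. Detection depends on depth. In the CD8 gate the share with at least 3 receptors was 4.88% and 13.5% at 2000 UMIs per cell and 35.7% and 50.7% at 6000, and it counts cells with a UMI rather than cells that express the gene.

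**Figure D3:**
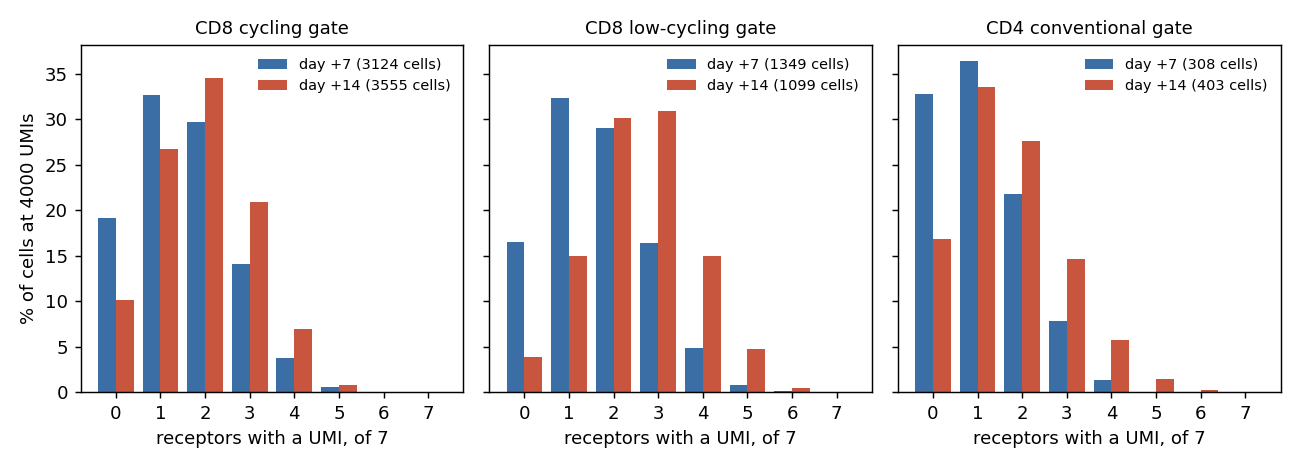
Percent of cells (bars from 0) with UMIs of 0 to 7 receptors at 4000 UMIs per cell in cycling CD8, low-cycling CD8 and conventional CD4 cells of the day +7 (blue) and day +14 (red) libraries. In low-cycling CD8 cells the most frequent number was 1 receptor on day +7 (32.3% of cells) and 3 on day +14 (30.8%).

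Co-detection with Tox was examined within each library, so that the day plays no part. Pdcd1 was detected in 54.2% [51.2, 57.2] of the CD8 gate cells with a Tox UMI and in 41.4% [39.99, 42.9] of those without on day +7, and in 65.5% [63.7, 67.2] and 56.6% [54.7, 58.6] on day +14. Lag3 was detected in 39.1% [36.2, 42.1] against 26.1% [24.8, 27.4] on day +7 and in 47.9% [46.1, 49.7] against 37.5% [35.6, 39.5] on day +14. The share was higher in cells with a Tox UMI on both days for 6 of the 7 receptors, and for 37.1% of all genes tested. Havcr2 was the exception, with 24.5% [22.0, 27.2] against 19.0% [17.8, 20.2] on day +7 and 18.9% [17.5, 20.3] against 19.1% [17.6, 20.7] on day +14, and with another random draw all 7 were higher on both days. Cd160 differed little on day +7, with 36.9% [34.1, 39.9] against 35.7% [34.3, 37.1], and more on day +14, with 61.1% [59.3, 62.8] against 55.6% [53.6, 57.6]. Cells of 1 library are not replicates, so these are descriptions.

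The shares followed the number of Tox UMIs on both days for Pdcd1 and Lag3 and not for every receptor. On day +7 Cd160 was detected in 35.7%, 38.1%, 33.3% and 33.3% of cells with 0, 1, 2 and 3 or more Tox UMIs. Entpd1 was detected in 7.00%, 10.2%, 9.45% and 5.56% of them. On day +14 both climbed, Cd160 at 55.6%, 59.9%, 60.1% and 66.1% and Entpd1 at 7.25%, 9.81%, 10.2% and 12.3%. Pdcd1 was detected in 41.4%, 50.7%, 64.7% and 65.3% of cells with 0, 1, 2 and 3 or more Tox UMIs on day +7 and in 56.6%, 62.4%, 65.5% and 74.4% on day +14. Lag3 was detected in 26.1%, 35.6%, 47.3% and 56.9% on day +7 and in 37.5%, 44.4%, 49.4% and 56.4% on day +14. The interval of Lag3 at 3 or more Tox UMIs was [44.7, 68.6] on day +7 and [52.1, 60.6] on day +14. The mean number of receptors was 1.49, 1.83, 2.05 and 2.31 on day +7 and 1.94, 2.16, 2.26 and 2.49 on day +14. Gzma, a granzyme of cytotoxic effector cells, was detected in 85.5% of cells without Tox and 66.7% with 3 or more Tox UMIs on day +7, and in 19.0% and 16.6% on day +14. The class with 3 or more Tox UMIs held 72 cells on day +7 and 543 on day +14, and its median depth before thinning, 7783 and 7375 UMIs, was below that of cells without Tox, 9420 and 9805.

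**Figure D4:**
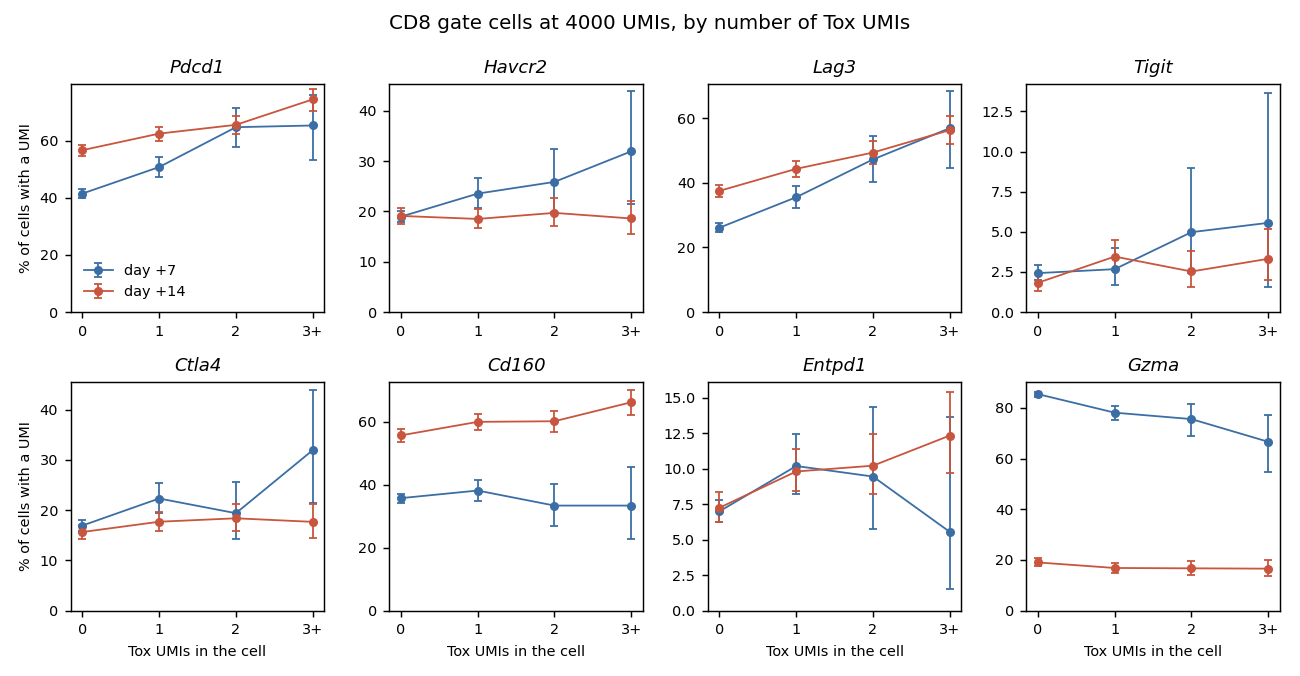
Percent of CD8 gate cells with a UMI of each receptor, and of Gzma, by the number of Tox UMIs in the cell at 4000 UMIs, for day +7 (blue) and day +14 (red), with exact binomial 95% intervals. Pdcd1 and Lag3 climb on both days, Cd160 does not on day +7 (35.7% to 33.3%), and Havcr2 climbs from 19.0% to 31.9% on day +7 and stays between 18.5% and 19.7% on day +14.

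Over all 36 pairs of the 9 genes in the CD8 gate, the share with the second gene was higher in cells with the first than in cells without it on both days for 25 pairs, lower on both days for 3, and of mixed direction for 8. In low-cycling cells the same held for 20, 7 and 9 pairs, in cycling cells for 23, 2 and 11, and in the conventional CD4 gate for 16, 8 and 12. When each of the 9 genes was paired with all genes tested in the gate, the share was higher on both days for 29.7% of pairs in the CD8 gate, 28.1% in low-cycling cells, 29.2% in cycling cells and 25.1% in the conventional CD4 gate, and lower on both days for 26.4%, 23.5%, 24.02% and 25.7%. Lag3 and Pdcd1 were among the 25, with Pdcd1 in 51.9% of cells with Lag3 and 40.8% without on day +7 and in 66.1% and 57.9% on day +14. Ctla4 and Cd160 were among the 3, with Cd160 on day +14 in 55.2% [52.0, 58.4] of cells with Ctla4 and 59.3% [57.8, 60.7] without, and on day +7 the shares were 35.8% and 36.0%. Pairs share cells and genes and are not independent of each other.

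**Figure D5:**
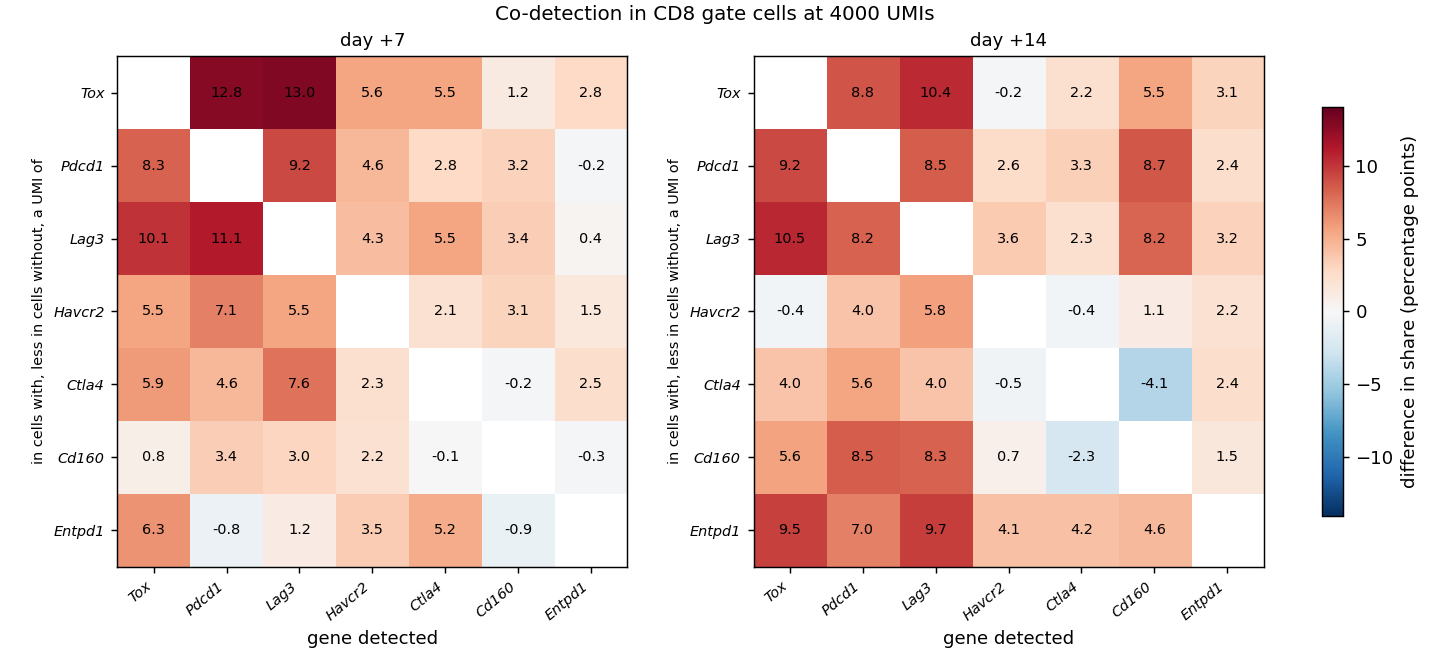
Difference, in percentage points, between the share of CD8 gate cells with a UMI of the column gene among cells with and among cells without a UMI of the row gene, at 4000 UMIs per cell, for each day. Tox2 and Tigit, which were detected in few cells, are not drawn, and the Tox, Pdcd1 and Lag3 block is positive throughout.

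The genes most like Tox, Pdcd1 and Lag3 were sought among the 4914 genes at 20 CPM or more on average in the CD8 gate, ranked by the log2 ratio between cells with and without a UMI of the member in the weaker of both libraries. For Tox the first was Nr4a2, an orphan nuclear receptor induced by antigen receptor signals, with ratios of 0.70 on day +7 and 0.85 on day +14, followed by Ccl3, Tcrg-C2, Rgs16, Ikzf2 and Ccl4. For Pdcd1 they were Ccl4, at 0.97 and 0.78, then Ccl3, Rgs16, Nr4a2, Eno3 and Tox. For Lag3 they were Rgs16, at 0.82 and 0.56, then Ccl3, Gm36723, Ccl4, Nr4a2 and St6galnac3. The medians over the 4914 genes lay between -0.02 and 0.02. Lag3 ranked 9 and Pdcd1 33 in likeness to Tox, and Havcr2 ranked 989. At the other end, Klrg1, a receptor of terminal effector cells, had ratios of -1.19 and -0.45 with Tox and -0.93 and -0.82 with Pdcd1.

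Other genes of these pathways were taken from lists and compared between the days in the CD8 gate at the same thresholds. The counts of each list stand beside the 1.82% of all genes tested in the gate that were 2-fold higher and the 1.39% that were lower. Of 14 tested of 18 transcription factors, 3 were 2-fold higher on day +14 and none lower. Ikzf2, which encodes Helios, was at 17.0 CPM on day +7 and 85.7 CPM on day +14, Eomes, a T-box factor of memory and exhausted cells, at 21.2 and 91.1 CPM, and Nr4a2 at 37.4 and 109 CPM. Tcf7, which encodes TCF-1 and is needed by stem-like exhausted cells, was at 8.95 and 15.8 CPM, and Nr4a1 was at 9.98 and 14.0 CPM, both within 2-fold. The median log2 ratio of the list was 0.47.

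Among 8 tested of 12 other inhibitory receptors, Cd200r1 alone was 2-fold higher, at 6.23 and 18.1 CPM, past the minimum by its day +14 level. None was 2-fold lower, and the median log2 ratio was 0.13. Klrc1 was at 158.5 and 85.1 CPM, a log2 ratio of -0.89 [-0.94, -0.85]. Median-ratio scaling, which lowers the day +14 levels in this gate, was not applied to list genes within 2-fold such as Klrc1. Of 3 tested of 10 ligand genes, Lgals3, which encodes galectin-3, a ligand of LAG-3, was 2-fold lower, at 1828 and 655 CPM, and the median was -0.29. The 11 genes of signalling and restraint were all tested and Ptpn6, which encodes the phosphatase SHP-1, was 2-fold lower at 124 and 58.3 CPM, with a median of 0.33 for the list. Of 4 tested of 7 adenosine pathway genes, Cd38, an ectoenzyme that uses NAD, was 2-fold higher at 14.6 and 40.1 CPM, with a median of 0.43. None of the 3 costimulatory partners Cd28, Icos and Cd226 was past 2-fold, and their median was 0.04. Each list's median compares with 0.19 for all genes tested in the gate. In the conventional CD4 gate, where 3.38% of all genes were 2-fold higher and 1.27% lower, 3 of 14 tested transcription factors were 2-fold higher, Eomes at 9.04 and 56.2 CPM, past the minimum by its day +14 level, Nr4a2 at 31.8 and 67.5 CPM and Prdm1, which encodes BLIMP-1, at 16.7 and 35.5 CPM. The log2 ratio was 1.06 [0.73, 1.45] for Nr4a2 and 1.04 [0.60, 1.59] for Prdm1, and with median-ratio scaling both calls were lost, at 0.996 and 0.98. Cd38 (1 of 4 tested) was higher at 12.1 and 30.8 CPM, and so was Dgkz (1 of 11), a diacylglycerol kinase, at 54.2 and 117 CPM. Klrc1 (1 of 8), which encodes NKG2A, was 2-fold lower at 62.6 and 27.2 CPM, and Lgals3 (1 of 4) at 1173 and 448 CPM. None of the 3 costimulatory partners was past 2-fold in that gate.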

How the data were processed

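Whole-number counts of UMIs per gene and cell, deposited by the authors without normalization, were read for both libraries. Per the labels, the processing notes name Cell Ranger 6.1.2 and mm10, and whether counting used strand is not stated. Gene positions came from an annotation of the same build. Tox and Cd160 overlap genes on the other strand, Gm11802 (49 and 56 UMIs) and Pdzk1 (42 and 111 UMIs). Scrublet, run in scanpy 1.11.5 under Python 3.11.15 with numpy 2.4.6 and scipy 1.17.1, called 0 cells in either library and so did not serve. As an alternative, 433 and 518 barcodes with the highest scores were removed.

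Gates used 1 random thinning to 4000 UMIs, and levels used all UMIs of the gated cells. Barcodes with at least 1% neutrophil, 0.2% macrophage or 0.5% erythroid list UMIs were gated apart. Intervals are exact Poisson for CPM, exact binomial (Clopper-Pearson) for shares and conditional binomial for ratios, at 95%. A call is a log2 ratio, with 1 CPM added, of at least 1 in size among genes at 10 CPM or more on average over both groups. The calculations were tested on simulated data.

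All 9 genes were named. From the other lists, genes past 2-fold in the CD8 gate were named, with Tcf7, Eomes and Nr4a1 whatever their values, and for Tox, Pdcd1 and Lag3 the 6 most alike genes. The costimulatory partners, the list genes past 2-fold in the CD4 gate, Gzma, Klrg1, Cd8a, Cd8b1 and the ranks of members were added after their values were seen. The genes and lists were chosen with earlier results of these data known. Scaling, gate, doublet, filter, depth and mitochondrial alternatives were computed.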

Additional observations from a re-analysis of the deposited data

Results flagged for a closer look

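Ctla4 went opposite ways between the days in the 2 gates with Foxp3. Its log2 ratio of day +14 over day +7 was 1.05 [0.69, 1.41] in the Foxp3+ gate and -0.63 [-1.03, -0.26] in cells with both Foxp3 and Cd8. The difference was not tested, since each day has 1 library, and the gates held 31 and 28 cells in the first case and 84 and 22 in the second. Ctla4 was the only gene flagged when all 9 genes were compared in this way over several pairs of gates. Of the 22 cells, 6 were among the highest doublet scores. In the cells with both genes Il2ra was at 191 and 76.7 CPM and Cd8b1 at 721 and 371 CPM, so they differed between the days in more than Ctla4.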

How the results depend on the processing

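No paired analysis was possible because each day has 1 library. None of the 9 genes changed the sign of its log2 ratio in the CD8 or conventional CD4 gate under the 8 alternatives run on it. Tox lay between 1.47 and 1.79 in the CD8 gate and between 1.82 and 1.96 in the CD4 gate. With median-ratio scaling, 1 gene was past 2-fold in all kept cells and 1 in the CD8 gate, both times Tox, against 2 in each. In the conventional CD4 gate 2 genes were past 2-fold with it, against 3, and Entpd1 was at 0.94. The summed log2 ratio of the CD8 gate was 0.57 with this scaling, against 0.79. That sum was 0.91 as a mean of per-cell CPM and 0.83 with at least 2 gating UMIs. With gates on all UMIs, 2 calls in place of 1 were past 2-fold between cycling states, counted over both days together. At 2000 UMIs per cell the difference between the days in the share with at least 3 receptors was 8.59 percentage points, against 15.8 at 4000. Of alternatives chosen after seeing the data, other-lineage limits divided by 4 left 1 gene past 2-fold in the CD8 gate (Cd160 at 0.997), cycling cells alone 1 and low-cycling cells alone 5, of which Pdcd1 was lost with median-ratio scaling. Depth limits Tox2 and Tigit in the CD8 gate, and the number of cells, 31 and 28, limits nearly every gene in the Foxp3+ gate.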

Other observations

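Cells with UMIs of both Cd4 and Cd8 numbered 46 on day +7 and 177 on day +14, with median depths of 15138 and 10849 UMIs. Tox was at 91.3 CPM [71.1, 116] and 248 CPM [228, 269] in them, Pdcd1 at 218 CPM [186, 254] and 325 CPM [302, 349], and Havcr2 at 74.1 CPM [56.0, 96.3] and 44.0 CPM [35.9, 53.5]. Cells with neither gene numbered 886 and 597, and Tox was at 48.0 CPM [44.2, 52.0] and 155 CPM in them and Havcr2 at 46.3 CPM [42.6, 50.3] and 30.3 CPM. Macrophages carry CD39, and in the macrophage gate of 37 cells on day +7 an Entpd1 UMI was found in 13, against 1 of 11 cells on day +14. These shares, 35.1% [20.2, 52.5] and 9.09% [0.23, 41.3], have intervals that overlap, and without thinning they were 54.1% and 45.5%. The interval of the log2 ratio of the levels, from -2.72 to 0.33, held 0.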
